A study of Mus musculus with 4 samples.

Results

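Pax8, Nkx2-1, Foxe1, Hhex, Cdh16, Epcam, Clic3 and Slc5a8 are 8 genes grouped here as thyroid transcription factors and follicular identity genes. The follicular cell is the epithelial cell that makes thyroid hormone. Other cell types make some of these RNAs too, and which of the 8 are particular to the follicular cell was not tested. The 8 genes were selected by gene symbol: all 8 named symbols were found among the 16218 genes of the count table, and all 8 passed the filter on low counts. The data comprised 4 thyroid libraries from NOD.H-2h4 mice, a strain that is prone to autoimmune thyroiditis. Libraries 1 and 2 of the anti-PD-L1 group came from mice injected with an antibody against PD-L1, a ligand through which tissue cells restrain T cells carrying PD-1, and libraries 1 and 2 of the IgG group from mice given an isotype control antibody, in both groups 3 times a week for 2 weeks. The age of the animals and any pooling of glands are not given, and nothing says that the glands were dissected free of neighbouring tissue.

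Pax8, Nkx2-1, Foxe1 and Hhex are transcription factors that the thyroid primordium expresses together, and the combination is known for being particular to that organ, although each factor is also used elsewhere. In the adult gland Pax8, Nkx2-1 and Foxe1 act on the promoters of hormone synthesis genes such as Tg, and loss of any of the 4 in mice impairs thyroid development. The other genes belong to the finished epithelium. Cdh16 encodes a cadherin of thyroid and kidney epithelium, Epcam an adhesion molecule of many epithelia, Clic3 a member of the chloride intracellular channel family, and Slc5a8 a sodium-coupled monocarboxylate transporter of the apical membrane.

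Levels of the 8 genes did not separate the anti-PD-L1 libraries from the IgG libraries. The median log2 fold change over the 8 genes was 0.00078, with 4 genes above 0 and 4 below, and the single values lay between −0.36 for Clic3 and 0.21 for Hhex. Values are CPM, counts scaled to the size of the library, with TMM (trimmed-mean) factors that make libraries comparable. In all 8 genes the groups overlapped, as they did in 70.4% of the 16217 genes tested, while 16.5% had both anti-PD-L1 values on top and 13.1% had both at the bottom. The quasi-likelihood test of edgeR, adjusted by Benjamini-Hochberg over all genes, called 0 of the 8 genes at a threshold of 0.05, where the percentage called among all genes was 0 in both directions. At an unadjusted p under 0.05 it had 0 of the 8, against 6.06% of all genes (4.96% higher and 1.1% lower). DESeq2 called 0 of the 8 genes, against 2.93% of all genes called higher and 0.327% called lower, and limma voom called 0 of the 8 and 0 of all genes, with 0 of the 8 and 6.46% of all genes at an unadjusted p under 0.05. The smallest two-sided p of an exact permutation test at this group size is 0.333, and none is given for single genes.

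**Figure D1:**
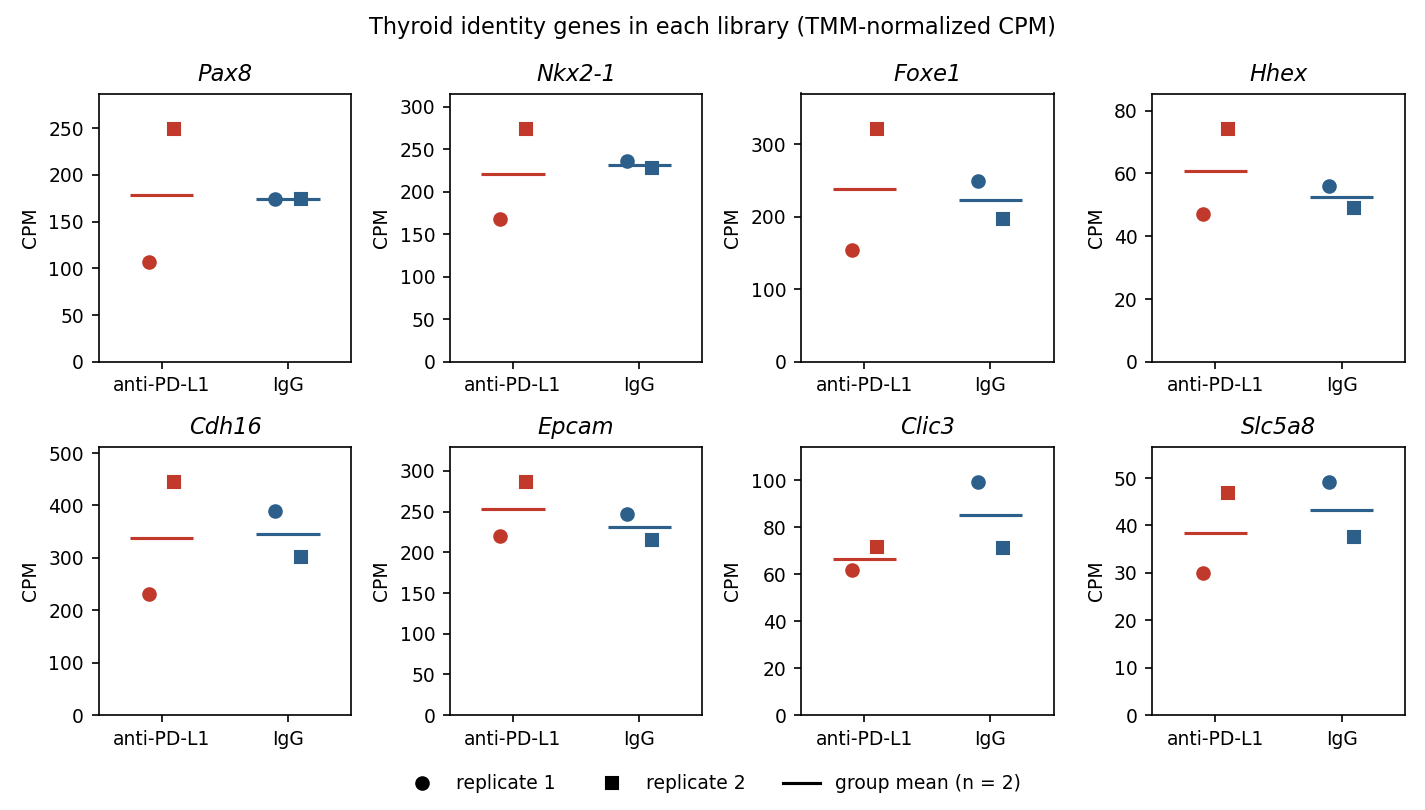
TMM-normalized CPM (linear axes from 0) of the 8 genes, with anti-PD-L1 libraries in red and IgG libraries in blue, replicate 1 as a circle, replicate 2 as a square and the mean of 2 libraries as a line. Anti-PD-L1 replicate 2 was the highest library in 6 genes and anti-PD-L1 replicate 1 the lowest in 7, so the IgG libraries mostly lie between them.

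The separation that the 8 genes did show was within the anti-PD-L1 group. Anti-PD-L1 replicate 1 lay below both IgG libraries in 7 of the 8 genes, Epcam being the exception, against 37.3% of all genes. Anti-PD-L1 replicate 2 lay above both IgG libraries in 6 of the 8, Clic3 and Slc5a8 being the exceptions, against 39.2% of all genes. Both held for 5 genes (Pax8, Nkx2-1, Foxe1, Hhex and Cdh16), against 16.9% of all genes. The counts 7 and 6 were the same with plain library-size, RLE or upper-quartile scaling. With Tg left out of the library size they were 8 and 7. Tg took a smaller part of the counts in anti-PD-L1 replicate 1 than in the other libraries. Leaving it out therefore lowers every other gene of that library relative to the rest, so nothing further is read from 8 and 7. The shares of all genes were computed with TMM only. The median absolute log2 difference between the anti-PD-L1 libraries was 0.69 over the 8 genes and 0.33 over all genes, and that between the IgG libraries was 0.27 over the 8 genes and 0.16 over all genes. Anti-PD-L1 replicate 1 had 1.40 CPM of Xist, the RNA of the inactive X chromosome, against 67.7 CPM in anti-PD-L1 replicate 2 and 72.7 and 72.3 CPM in IgG thyroids. Ddx3y, a Y chromosome gene, had 62.6 CPM in that library, against 0.790 CPM in the other anti-PD-L1 library and 0.350 and 0.486 CPM in IgG thyroids. Sex as these RNAs mark it cannot be told apart from other differences between the anti-PD-L1 libraries.

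Fewer follicular cells and less RNA per cell cannot be told apart in such whole-tissue libraries. Tg, the gene of thyroglobulin, took 4.34% and 16.9% of all counts in anti-PD-L1 thyroids (replicate 1 being the low one), against 15.3% and 14.6% in IgG thyroids. Total counts ranged from 75591923 to 79663374.5 per library. Counts of the 8 genes ran from 2196 to 36076, so the counting error of a value was at most 2.13% (1 SD), below the spread between the anti-PD-L1 libraries in each of the 8 genes. RNA of neighbouring tissue was found in every library, and its part in the results was not tested. The summed level of 12 skeletal muscle genes was 76068 and 28571 CPM in anti-PD-L1 thyroids and 46853 and 63123 CPM in IgG thyroids. That of 16 squamous epithelium genes was 5918 and 125 CPM in anti-PD-L1 thyroids and 13323 and 3640.0 CPM in IgG thyroids. That of the 17 listed genes among 18 airway and gland markers was 33394 and 9730.1 CPM in anti-PD-L1 thyroids and 4376 and 20417 CPM in IgG thyroids. The 12 cartilage genes summed to 136 and 192 CPM in anti-PD-L1 thyroids and 224 and 259.9 CPM in IgG thyroids. Of these, 8 were lower in both anti-PD-L1 libraries, against 13.1% of all genes. DESeq2 called 6 lower, against 0.327% of all genes, and edgeR called 0. At an unadjusted edgeR p under 0.05, 6 were lower, against 1.1% of all genes.

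Promoter sequences are given for the 2 extremes of the spread within the anti-PD-L1 group, Pax8 (a 2.33-fold ratio of replicate 2 to replicate 1) and Clic3 (1.16-fold), among the 6 of the 8 genes that matched the RefSeq promoter table (Pax8, Nkx2-1, Hhex, Epcam, Clic3 and Slc5a8). Each is the 250 bases before the RefSeq gene start on GRCm38.p6, written 5′ to 3′ on the gene's strand, with the GC-box letters GGCGGG in capitals. Gene spans in this text are from GENCODE, whose starts can differ. The windows of Clic3 and Hhex therefore reach past the start of the span given for the gene. The Pax8 window is chr2:24475600-24475849 on the minus strand, and the Clic3 window is chr2:25456593-25456842 on the plus strand.
Pax8: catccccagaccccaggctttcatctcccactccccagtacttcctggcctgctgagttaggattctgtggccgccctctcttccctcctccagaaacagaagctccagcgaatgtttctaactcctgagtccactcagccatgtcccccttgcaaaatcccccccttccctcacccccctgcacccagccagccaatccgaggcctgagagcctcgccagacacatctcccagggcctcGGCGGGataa
Clic3: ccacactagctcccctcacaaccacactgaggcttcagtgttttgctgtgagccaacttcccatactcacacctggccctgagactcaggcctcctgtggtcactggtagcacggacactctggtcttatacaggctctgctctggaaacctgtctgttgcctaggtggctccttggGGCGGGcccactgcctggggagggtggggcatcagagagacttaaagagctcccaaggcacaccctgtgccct

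On either strand, GGCGGG was found in 5 of the 6 windows (all but that of Nkx2-1), and in 32.5% of the 32851 promoter windows of this length. In Pax8 the match began 10 bases before the start and in Clic3 73 bases before it. The letters CTCAAG, the core that NKX2-1 is known to bind, and TATAAA were in 0 of the 6 windows, and in 13.3% and 12.4% of all windows. No matches overlapped those of another motif. GC content was 60.4% for Pax8, 50.8% for Nkx2-1, 76.0% for Hhex, 56.4% for Epcam and 58.8% for Clic3 and for Slc5a8, against a median of 52.4% over all windows. The Hhex window held 32 CpG dinucleotides and the Clic3 window 2, around a median of 6 over all windows.

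Pax8, a paired-domain factor, is the member in which the anti-PD-L1 libraries lay farthest apart. The gene (ENSMUSG00000026976) spans chromosome 2 from 24420560 to 24475599 on the minus strand of GRCm38. Pax8 had 107 and 250 CPM in anti-PD-L1 thyroids, against 175 and 174 CPM in IgG thyroids. The IgG libraries were nearly equal and lay between the anti-PD-L1 libraries, of which replicate 1 was the low one. The group means were 178 ± 101 CPM in anti-PD-L1 and 174 ± 0.609 CPM in IgG (SD, n = 2 each). The fitted log2 fold change was 0.03 ± 0.44 (SE, edgeR adjusted p = 0.9997), with a 95% interval from −1.16 to 1.23, which spans 0.447-fold to 2.34-fold.

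Nkx2-1, a homeodomain factor also made by lung and airway epithelium and by the calcitonin-secreting parafollicular C cells, lies on chromosome 12 from 56531958 to 56536908 (ENSMUSG00000001496, minus strand). Nkx2-1 had 168 and 275 CPM in anti-PD-L1 thyroids, against 236 and 228 CPM in IgG thyroids. Both IgG libraries again fell between the anti-PD-L1 libraries. The log2 fold change of Nkx2-1 was −0.07 ± 0.30 (SE, edgeR adjusted p = 0.9997; 95% interval −0.89 to 0.75).

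Foxe1, a forkhead factor, is an intronless gene on chromosome 4 from 46343609 to 46346412 (ENSMUSG00000070990, plus strand). Foxe1 had 155 and 322 CPM in anti-PD-L1 thyroids, against 249.5 and 197 CPM in IgG thyroids. The order of the libraries was that of Pax8, with anti-PD-L1 replicate 1 lowest and anti-PD-L1 replicate 2 highest, but the IgG libraries stood farther apart. The log2 fold change of Foxe1 was 0.09 ± 0.42 (SE, edgeR adjusted p = 0.9997; 95% interval −1.03 to 1.21).

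Hhex, a homeodomain factor that endothelial and blood progenitors and liver also use, lies on chromosome 19 from 37434810 to 37440731 (ENSMUSG00000024986, plus strand). Hhex had 47.0 and 74.3 CPM in anti-PD-L1 thyroids, against 56.1 and 49.0 CPM in IgG thyroids. Anti-PD-L1 replicate 1 and IgG replicate 2 were close to each other, and anti-PD-L1 replicate 2 stood above the rest. Its log2 fold change, 0.21 ± 0.27 (SE, edgeR adjusted p = 0.9997), was the highest of the 8 genes, with a 95% interval from −0.51 to 0.93.

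Among the epithelial genes, Cdh16 (chromosome 8, 104601911 to 104624396, minus strand, ENSMUSG00000031881) had the largest CPM of all 8 in each library. Cdh16 had 232 and 445 CPM in anti-PD-L1 thyroids, against 389.8 and 303 CPM in IgG thyroids. Its libraries took the same order as those of Foxe1. The log2 fold change of Cdh16 was −0.03 ± 0.40 (SE, edgeR adjusted p = 0.9997; 95% interval −1.10 to 1.04).

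Epcam (chromosome 17, 87635979 to 87651129, plus strand, ENSMUSG00000045394) had the smallest ratio of its highest to its lowest library. Epcam had 219.5 and 287 CPM in anti-PD-L1 thyroids, against 247 and 215 CPM in IgG thyroids. The lowest library was IgG replicate 2, which lay just under anti-PD-L1 replicate 1. The log2 fold change of Epcam was 0.13 ± 0.24 (SE, edgeR adjusted p = 0.9997; 95% interval −0.51 to 0.78).

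Clic3 (chromosome 2, 25456838 to 25458776, plus strand, ENSMUSG00000015093) was the member with the lowest fitted fold change and the smallest SE. Clic3 had 61.6 and 71.6 CPM in anti-PD-L1 thyroids, against 99.3 and 71.1 CPM in IgG thyroids. Anti-PD-L1 replicate 2 and IgG replicate 2 were nearly equal, and the lower mean in anti-PD-L1 came with the high value of IgG replicate 1. The log2 fold change of Clic3 was −0.36 ± 0.23 (SE, edgeR adjusted p = 0.9997), with a 95% interval from −0.97 to 0.26, or 0.512-fold to 1.19-fold. With RLE or upper-quartile scaling, Clic3 was the 1 gene of the 8 whose groups did not overlap. The share of all genes was not computed for these scalings. With TMM, 16.5% of all genes had both anti-PD-L1 values on top and 13.1% had both at the bottom, so nothing is read from this count.

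Slc5a8 (chromosome 10, 88885992 to 88929515, plus strand, ENSMUSG00000020062) had the lowest counts of the 8 genes. Slc5a8 had 29.9 and 46.8 CPM in anti-PD-L1 thyroids, against 49.2 and 37.5 CPM in IgG thyroids. Here IgG replicate 1 was the highest library and anti-PD-L1 replicate 1 the lowest. The log2 fold change of Slc5a8 was −0.18 ± 0.29 (SE, edgeR adjusted p = 0.9997; 95% interval −0.95 to 0.59).

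**Figure D2:**
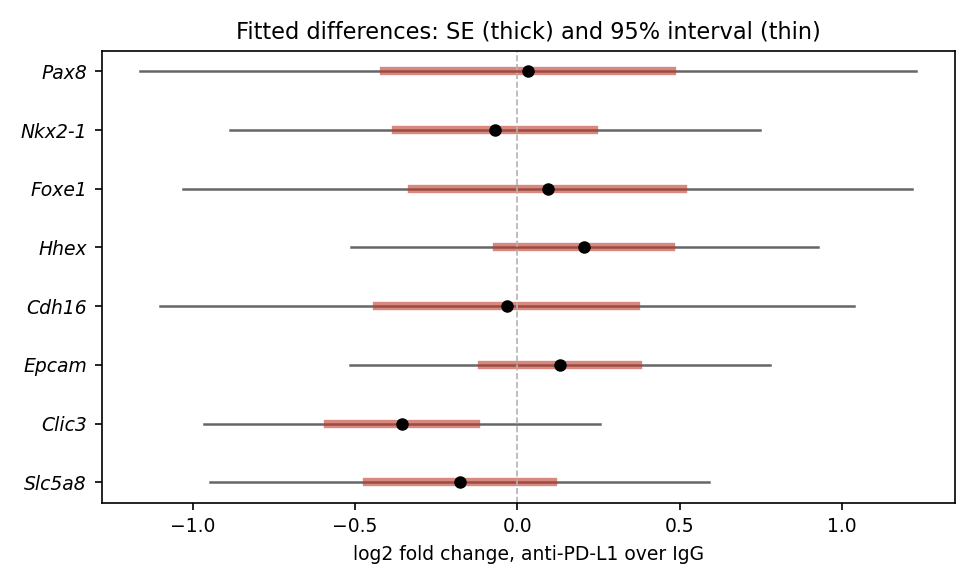
Fitted log2 fold change of anti-PD-L1 over IgG (points) for each of the 8 genes, with 1 SE as a thick bar and the 95% interval as a thin line (n = 2 libraries per group). Every interval includes 0, the widest being that of Pax8 (−1.16 to 1.23) and the narrowest that of Clic3 (−0.97 to 0.26).

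These intervals bound what 2 libraries per group could show: between them they reach from −1.16 to 1.23 on the log2 scale. The median SE was 0.30 for the 8 genes and 0.24 for all genes. The direction of 7 of the 8 fold changes, all but that of Clic3, depended on which library was kept. Without anti-PD-L1 replicate 1 the median log2 fold change of the 8 genes was 0.34, with 7 of 8 above 0. Without anti-PD-L1 replicate 2 it was −0.51, with 0 of 8 above 0. In both cases edgeR called 0 of the 8 genes.

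Whether counting used strand is not stated, so reads of Pax8 and Foxe1 cannot be told apart from those of a neighbour where exons overlap. Exons of Gm13415 overlap those of Pax8 by 367 bases and exons of Gm12446 overlap those of Foxe1 by 102 bases, each from the opposite strand. Gm26973 and Paxx, also on the opposite strand, overlap the spans of Nkx2-1 and Clic3 but share 0 exonic bases with them.

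Compared per length of exon, Epcam had the highest level and Slc5a8 the lowest. Epcam had 115 ± 21.6 CPM per kb in anti-PD-L1 and 105 ± 10.3 CPM per kb in IgG (SD, n = 2 each), and Slc5a8 7.19 ± 2.24 CPM per kb in anti-PD-L1 and 8.13 ± 1.56 CPM per kb in IgG. In order of the mean over the 4 libraries, Epcam (110 ± 14.99 CPM per kb, SD, n = 4) was followed by Cdh16 (90.3 ± 24.8), Foxe1 (82.3 ± 25.7), Nkx2-1 (79.7 ± 15.5) and Clic3 (74.98 ± 16.1). The ranges of neighbours among these 5 overlapped, and the order of Foxe1 over Nkx2-1 and of Nkx2-1 over Clic3 held in only 2 of 4 libraries each. Pax8 (29.1 ± 9.61 CPM per kb), Hhex (11.2 ± 2.46) and Slc5a8 (7.66 ± 1.67) followed, each below the gene before it in all 4 libraries with ranges that did not overlap. Lengths are the union of annotated exons over all isoforms.

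**Figure D3:**
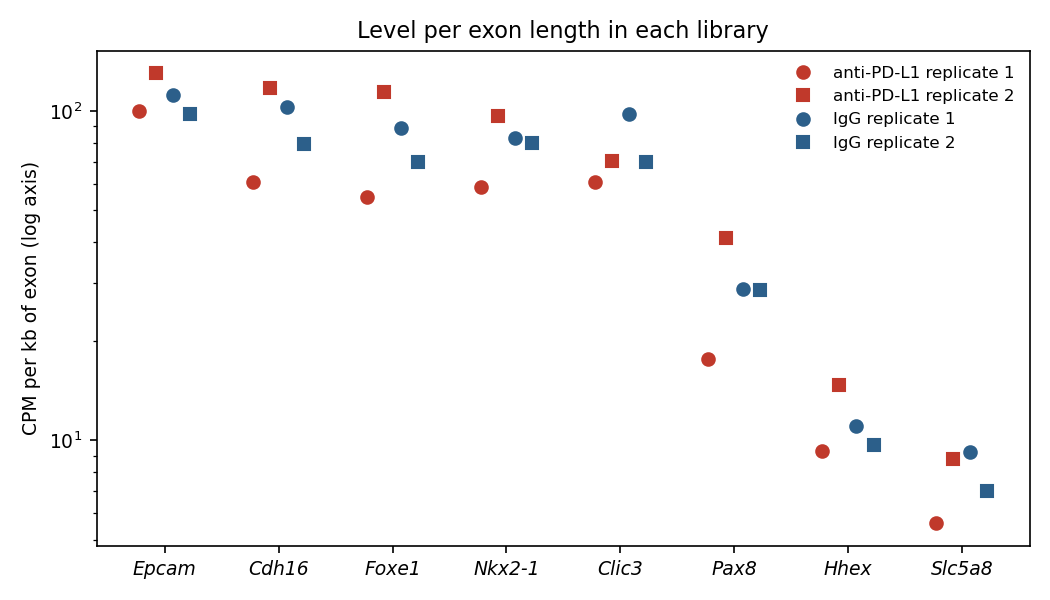
Level of each gene per kb of exon (log axis), ordered by the mean over the 4 libraries, with anti-PD-L1 libraries in red and IgG libraries in blue. The points of the first 5 genes overlap between 55.1 and 131 CPM per kb, while Pax8, Hhex and Slc5a8 form separate steps below.

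The proportions among the 8 genes within a library were also compared. Setting each gene's log2 CPM against the mean of the 8 in the same library left ranges over the 4 libraries between 0.20 (Nkx2-1) and 0.64 (Clic3). Hhex stood 1.13 and 1.19 below that mean in anti-PD-L1 thyroids, against 1.43 and 1.37 below it in IgG thyroids. Slc5a8 stood 1.78 and 1.86 below it in anti-PD-L1 thyroids, against 1.62 and 1.76 below it in IgG thyroids. Hhex was thus 1 of 8 higher in both anti-PD-L1 libraries and Slc5a8, by a narrow gap, 1 of 8 lower in both, and the other 6 genes overlapped. Of all other genes set against the same mean, 9.99% were higher and 4.82% lower in both anti-PD-L1 libraries, so that nothing is read from these counts. As a count ratio to Pax8, the groups overlapped for all 7 other members, Hhex and Slc5a8 included.

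Hormone synthesis genes were set against Pax8 in the same way. Of the 17 listed genes of that group, 1 had a count ratio to Pax8 that was lower in both anti-PD-L1 libraries and none had one that was higher, against 2.66% lower and 6.81% higher among all genes. It was Tg, with 417 and 651 counts per Pax8 count in anti-PD-L1 thyroids, against 875 and 854 in IgG thyroids. This ratio was 1 of 17 examined, and the smallest p an exact permutation test of it can give is 0.333. The ratio of Iyd, the iodotyrosine deiodinase, to Pax8 was the steadiest, at 2.79 and 2.62 in anti-PD-L1 thyroids and 3.05 and 2.53 in IgG thyroids.

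The list of hormone synthesis genes as a whole had a median log2 fold change of −0.03, with 8 of 17 above 0, and edgeR called 0 of them (0 at an unadjusted p under 0.05, and 0 by DESeq2). Anti-PD-L1 replicate 1 was the lowest library in 8 of the 17, against 30.7% of all genes. Tg had 44667 and 162488 CPM in anti-PD-L1 thyroids, against 152770 and 148532 CPM in IgG thyroids (log2 fold change −0.54 ± 1.06, SE, edgeR adjusted p = 0.9997). Iyd had 299 and 655 CPM in anti-PD-L1 thyroids, against 533 and 440 CPM in IgG thyroids, an order of libraries that it shared with Cdh16.

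Of 21 other factors of thyroid development and their partners, 19 were listed. Their median log2 fold change was −0.19, with 7 above 0 and 12 below. edgeR and DESeq2 called 0 of them. An unadjusted edgeR p under 0.05 was found for 1 of the 19, against 6.06% of all genes. It was Jag1, the gene of a Notch ligand. Jag1 had 23.3 and 30.8 CPM in anti-PD-L1 thyroids, against 40.4 and 38.8 CPM in IgG thyroids (log2 fold change −0.55 ± 0.19, SE, edgeR adjusted p = 0.732). Wwtr1, which encodes TAZ, a co-activator of Pax8 and Nkx2-1, had a log2 fold change of −0.17 ± 0.17, and its relative Yap1 one of −0.19 ± 0.18 (SE, neither called). Glis3, a zinc finger factor needed for thyroid hormone production, had 18.8 and 56.9 CPM in anti-PD-L1 thyroids, against 23.2 and 25.7 CPM in IgG thyroids, and so was also lowest in anti-PD-L1 replicate 1 and highest in anti-PD-L1 replicate 2.

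Genes shared by most epithelia were set beside the 8 genes library by library. All 28 of that list were in the table, among them Cdh1, the gene of E-cadherin, and the tight junction gene Cldn3. Their mean deviation from the 4-library mean of log2 CPM was 0.05 and −0.24 in anti-PD-L1 thyroids and 0.34 and −0.16 in IgG thyroids, whereas that of the 8 genes was −0.40 and 0.33 in anti-PD-L1 thyroids and 0.16 and −0.09 in IgG thyroids. Anti-PD-L1 replicate 1 was the lowest library in 9 of the 28, against 30.7% of all genes, and in 3 of the 28 it lay below and anti-PD-L1 replicate 2 above both IgG libraries, against 16.9% of all genes. The difference between the lists was not tested. The epithelial list had a median log2 fold change of −0.23, with 6 above 0 and 22 below, and edgeR called 0. An unadjusted edgeR p under 0.05 was found for 1 of the 28, against 6.06% of all genes. It was Cldn1, the gene of the tight junction protein claudin-1. Cldn1 had 14.5 and 10.9 CPM in anti-PD-L1 thyroids, against 5.69 and 6.61 CPM in IgG thyroids (log2 fold change 1.04 ± 0.23, SE, edgeR adjusted p = 0.374). DESeq2 called it (adjusted p = 0.0200), 1 of the 28, against 2.93% of all genes called higher.

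**Figure D4:**
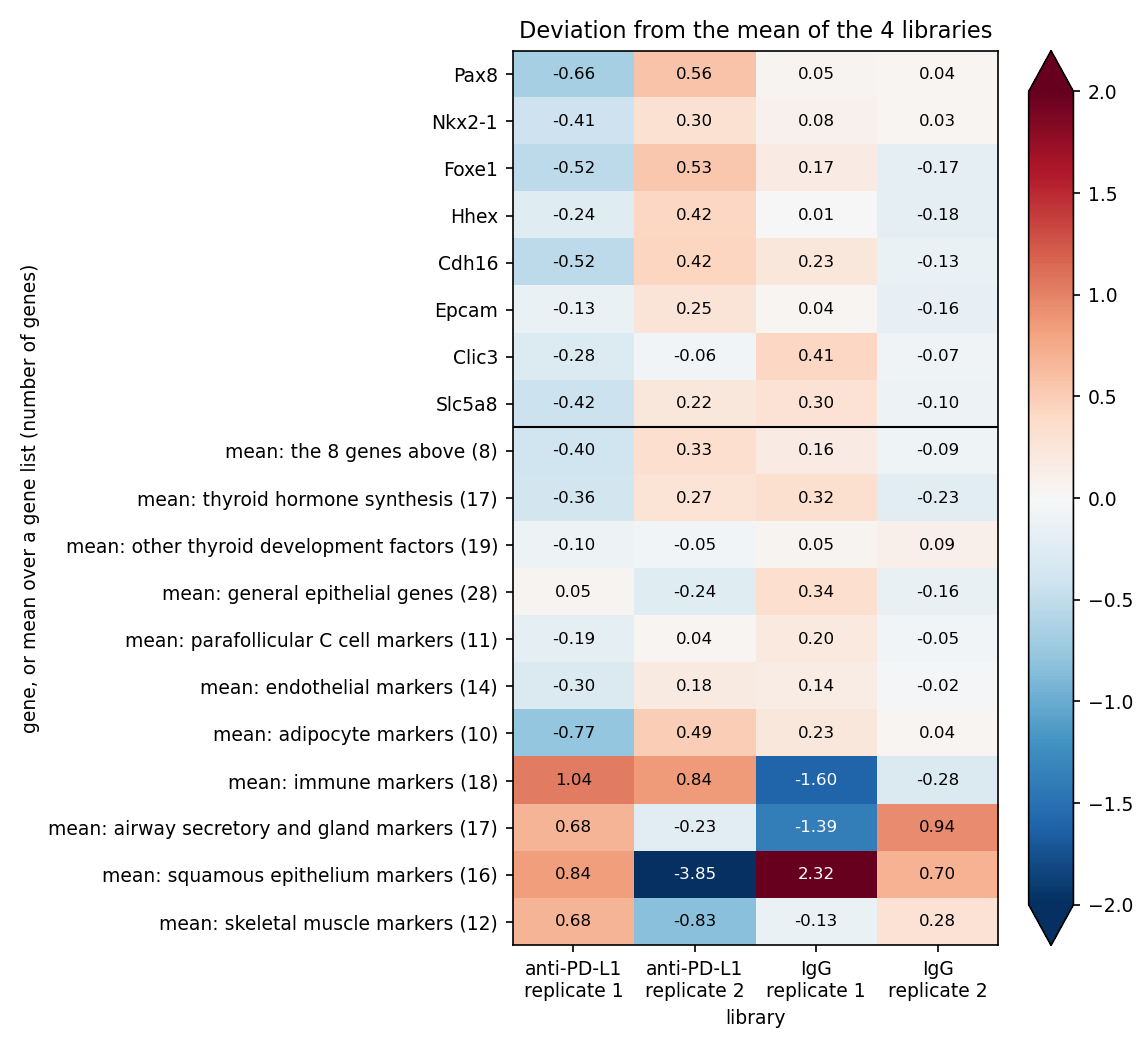
Deviation of log2 CPM from the mean of the 4 libraries (color and printed value) for the 8 genes and, below the line, averaged over gene lists, with the number of genes in brackets. The 8 genes average −0.40 and 0.33 in anti-PD-L1 thyroids. The hormone synthesis, C cell, endothelial and adipocyte lists are also below 0 in replicate 1 and above 0 in replicate 2 of that group. Of these, the hormone synthesis and C cell lists are highest in IgG replicate 1. The immune list is above 0 in both anti-PD-L1 libraries.

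Other cell types that make some of these RNAs were measured beside them, and their part in the result was not tested. For Nkx2-1, the 11 listed C cell genes summed to 1828 and 1432 CPM in anti-PD-L1 thyroids and 2031 and 1410 CPM in IgG thyroids, and none was at 0 in any library. Calca, the gene of calcitonin, had 831 and 740 CPM in anti-PD-L1 thyroids, against 912 and 906 CPM in IgG thyroids. The airway and gland sum given above was highest in anti-PD-L1 replicate 1, while the mean deviation of the same 17 genes was 0.68 and −0.23 in anti-PD-L1 thyroids and −1.39 and 0.94 in IgG thyroids, highest in IgG replicate 2. The 13 listed ciliated cell genes summed to 311 and 217 CPM in anti-PD-L1 thyroids and 291 and 404 CPM in IgG thyroids.

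For Hhex, 14 endothelial genes summed to 446 and 654 CPM in anti-PD-L1 thyroids and 596 and 537 CPM in IgG thyroids, none at 0. Of the 14, 11 were lowest in anti-PD-L1 replicate 1, against 30.7% of all genes. Some immune cells also express Hhex. The 18 immune genes summed to 778 and 768 CPM in anti-PD-L1 thyroids and 165 and 355 CPM in IgG thyroids. Their median log2 fold change was 1.94. DESeq2 called 11 of them higher, against 2.93% of all genes, while edgeR called none. At an unadjusted edgeR p under 0.05, 11 were higher, against 4.96% of all genes. For Epcam, Pth, the parathyroid hormone gene, had 3540 and 2529 CPM in anti-PD-L1 thyroids and 3345 and 1127 CPM in IgG thyroids. The 6 parathyroid markers summed to 3870 and 2897 CPM in anti-PD-L1 thyroids and 3769 and 1318 CPM in IgG thyroids. All 10 adipocyte genes were lowest in anti-PD-L1 replicate 1, against 30.7% of all genes. Their sums were 493 and 969 CPM in anti-PD-L1 thyroids and 827 and 702 CPM in IgG thyroids. In 7 of the 10, anti-PD-L1 replicate 1 lay below and anti-PD-L1 replicate 2 above both IgG libraries, against 16.9% of all genes. In 2 both anti-PD-L1 libraries lay below both IgG libraries. The order of libraries seen in 5 of the 8 genes was thus not confined to follicular genes.

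The response to interferon gamma is given for scale. Of 24 such genes, the anti-PD-L1 values were the top 2 in 23, against 16.5% of all genes, and their median log2 fold change was 2.40. DESeq2 called 22 of the 24 higher, against 2.93% of all genes, and edgeR called 0. At an unadjusted edgeR p under 0.05, 23 were higher, against 4.96% of all genes. Over the same libraries the 8 genes had a median log2 fold change of 0.00078 and a median absolute one of 0.11, against 0.15 over all genes. The small value does not make them steadier than other genes. Their anti-PD-L1 libraries differed by a median absolute log2 of 0.69, against 0.33 over all genes, and in 5 of the 8 lay on opposite sides of both IgG libraries.

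Family relatives of the membrane genes were not called by edgeR, and 1 transporter was called by DESeq2. The other 4 listed Clic genes had log2 fold changes between −0.50 and 0.35, and edgeR and DESeq2 called 0 of them. Clic5 had 147 and 84.2 CPM in anti-PD-L1 thyroids and 167 and 144 CPM in IgG thyroids. Slc5a5, the sodium-iodide symporter and a relative of Slc5a8, had 49.9 and 130 CPM in anti-PD-L1 thyroids, against 85.1 and 32.8 CPM in IgG thyroids (log2 fold change 0.61 ± 0.67, SE, edgeR adjusted p = 0.9997). Of 9 other genes of monocarboxylate transport, edgeR called 0. At an unadjusted edgeR p under 0.05, 2 of the 9 were lower, against 1.1% of all genes. DESeq2 called 1 lower, against 0.327% of all genes. It was Slc16a3, a proton-coupled lactate transporter. Slc16a3 had 50.8 and 44.6 CPM in anti-PD-L1 thyroids, against 79.4 and 77.6 CPM in IgG thyroids (log2 fold change −0.72 ± 0.15, SE, edgeR adjusted p = 0.339, DESeq2 adjusted p = 0.0120). Slc16a1, which carries the same substrates, had 31.4 and 29.1 CPM in anti-PD-L1 thyroids, against 45.6 and 41.7 CPM in IgG thyroids (log2 fold change −0.53 ± 0.14, SE, edgeR adjusted p = 0.519).

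Finally, genes outside the 8 were ranked by how closely their centred log2 CPM followed the mean of the 8 over the 4 libraries, by the root mean square difference. The closest were Galnt3 (0.010), Slc7a4 (0.024), Retsat (0.025), Rcan3 (0.027) and Ptpn23 (0.030), while the 8 genes themselves lay between 0.076 (Nkx2-1) and 0.24 (Clic3) from their own mean. Galnt3, a glycosyltransferase gene, had 29.0 and 47.4 CPM in anti-PD-L1 thyroids, against 41.9 and 35.5 CPM in IgG thyroids. Closest to Pax8 alone were Pygl (0.021), Heyl (0.025), Gramd1b (0.031), Trim56 (0.033) and Hif1a (0.033). With 4 libraries and 10145 genes compared, such closeness is a description of these libraries.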

How the data were processed

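Poly(A)-selected RNA of whole thyroid was sequenced as paired reads, per the labels' protocols. The authors deposited unnormalized expected counts for each gene symbol (16218 genes, each with a count of at least 100 in some library); 13 blank cells were read as 0. BWA and mm10 are named in the submitters' processing notes, with no role; no counter is given. The labels' batch field holds an antibody clone string that differs in every library; whether it marks a batch is not known, and it was not modelled. Expected counts were rounded. Tests used edgeR 4.0.16 in R 4.3.3 (filterByExpr, 16217 genes kept; TMM; robust quasi-likelihood F test on group, two-sided, Benjamini-Hochberg over all genes), with DESeq2 1.42.0 and limma 3.58.1 (voom) as alternatives. SE is |log2 fold change|/√F, and intervals are 95%. Residual degrees of freedom were 2, to which the edgeR tests and intervals add prior degrees of freedom estimated over all genes (median 2.42). Libraries of a group differed by more than sampling noise (chi-square/df of 1056 in anti-PD-L1 and 321 in IgG). P-values set the group difference against the spread between these libraries, as estimated with information shared across genes. The 3-count floor was 0.0370 to 0.0408 CPM. Deviations use a prior count of 2. Coordinates are from GENCODE M21 on GRCm38, which is mm10; sequences are from RefSeq. The steps were tested on simulated data, in which both tools called some unchanged genes, DESeq2 more of them than edgeR. In that simulation unchanged genes made up a larger part of each tool's calls than the threshold of 0.05 allows. There edgeR missed nearly all of the smaller changes and many of the larger ones, and DESeq2 missed most of the smaller ones. The members and gene lists were chosen with earlier results of these data known. Named genes are the 8 members, up to 4 genes of highest mean CPM per list, genes with an unadjusted p under 0.05 in the thyroid and epithelial lists, and the 5 genes closest in pattern among those of at least 10 CPM. Wwtr1, Glis3 and Slc16a1 were chosen after their values were seen.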

Additional observations from a re-analysis of the deposited data

How the results depend on the processing

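No alternative called any of the 8 genes (lowest adjusted p 0.326 over 112 pairs of gene and alternative), and 98 pairs kept their direction. Over all genes DESeq2 called 528 genes where edgeR called 0. The median of the 8 log2 fold changes lay between −0.51 and 0.34 when libraries were dropped singly, where a lone library was assumed to vary like the other group, and was −0.10 with limma voom. On dropping single libraries, the log2 fold change ran from −0.71 to 0.52 for Pax8, −0.48 to 0.24 for Nkx2-1, −0.54 to 0.53 for Foxe1, −0.17 to 0.50 for Hhex, −0.59 to 0.36 for Cdh16, −0.085 to 0.31 for Epcam and −0.55 to 0.11 for Slc5a8, so direction rested on which library was kept. Clic3 stayed below 0, at −0.11 without IgG replicate 1 and −0.58 without IgG replicate 2. With limma voom Pax8 was −0.10 and Foxe1 −0.00062, and with plain library size Cdh16 was 0.0026; the cause was not tested. With the replicate number as a block, the median was −0.094, Pax8 was −0.092, and 0 genes were called. Replicate numbers are not said to pair animals, and deviations of replicates numbered 1 correlated across genes at r = 0.0998. The effect of depth was assessed only as counting error.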
